A study of Mus musculus with 20 samples.

Results

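Testes of C57BL/6 mice taken 10 h after a heat shock were compared with testes of unheated mice of the same strain. The members are the 4 arrays whose titles name these conditions, 2 at 10 h after heat and 2 unheated controls, of 20 arrays in the series. All mice were 8 weeks old, and heat was given at 43 °C for 15 min. The other groups used here are C57BL/6 at 8, 12 and 24 h after the same heat, AKR/N (a second inbred strain) at 10 h after heat, and AKR/N controls, with 2 arrays each. No sampling hour is given for the controls, so heat and the hour of sampling cannot be told apart in a comparison with them. Separate mice for the duplicate arrays are not stated in the labels, and the p-values therefore cover only the spread of those duplicates, which may be technical.

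Heat shock proteins are chaperones: HSP70, HSP60 and the small heat shock proteins bind unfolded proteins and hold or refold them, and heat shock factors switch their genes on when proteins unfold. The testis is kept cooler than the rest of the body, and its germ cells, above all spermatocytes in meiosis, are known to be sensitive to heat. Around the germ cells lie Sertoli cells, which nurse them, and Leydig cells, which make testosterone.

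Total RNA of testis was read on the Affymetrix Mouse Genome 430 2.0 chip, on which a set of short probes reads each transcript. The median signal of the 4 arrays lay between 26.4 and 28.1, and replicate arrays correlated across genes with r = 0.982 at 10 h and r = 0.987 in controls (a description, since genes are not independent). As a measure of RNA quality, beta-actin gave a 3' over 5' probe signal of 2.45 and 2.37 at 10 h and 2.14 and 2.46 in controls. Gapdh gave 1.11 and 1.33 at 10 h and 1.035 and 1.08 in controls, so that both 10 h arrays lay above both controls, and the part of this in the changes below was not tested. Markers of germ cells read far above background on every array. The transcripts of protamine, Prm1 and Prm2, packing proteins of sperm DNA, had signals of 8847 to 10556 at 10 h and 9631 to 10411 in controls, and the spermatocyte and spermatid enzyme Ldhc had 8714 and 8950 at 10 h and 9443 and 9820 in controls. Of 7 neutrophil, 12 endothelial, 6 epididymis and 5 adipose markers tested, 0 were called in either direction, where 6.00% of all genes rose and 5.19% fell. The summed signal on the 4 arrays was only 152.3 to 200.1 for the neutrophil and 457.7 to 568.0 for the endothelial markers. Such dim markers say little by a lack of calls. Of the 5 adipose markers 0 had a positive change (median log2 change -0.18). In whole testis, fewer cells of a type and less RNA per cell cannot be told apart.

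Of 15762 genes tested, 1764 (11.2%) were called at an adjusted p under 0.05, and 946 (6.00%) rose while 818 (5.19%) fell at 10 h. The change reached 2-fold in 129 of the genes that rose (0.818% of all genes) and in 88 that fell (0.558%), together 1.38%. Changes are log2 differences of group means of log2(signal + 16), given with their standard error (SE), and every p is a limma value adjusted over all genes tested. A change on this scale understates that of genes with low signals. With 2 arrays per group single arrays carried weight: 228 genes (1.45%), 132 that rose (0.837%) and 96 that fell (0.609%), were called in the full fit and again without any 1 of the 4 arrays. These are named the stable calls below, and for other genes the arrays whose removal ended the call are given. Each gene was read by its brightest probe set, and where the mean over all its probe sets ended the call or moved the change by over 1.5 times, that value is given too. A call said to end without any 1 array ended whichever of the 4 was left out. The number called was 675 without 10 h replicate 1, 534 without 10 h replicate 2, 362 without control replicate 1 and 502 without control replicate 2. When the 4 arrays were fitted alone, 8 genes were called, all higher at 10 h: Hspa1b, Cryab, Hspd1, Hspe1, Tnfrsf12a, Hspb1, Star and Hspa8.

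**Figure D1:**
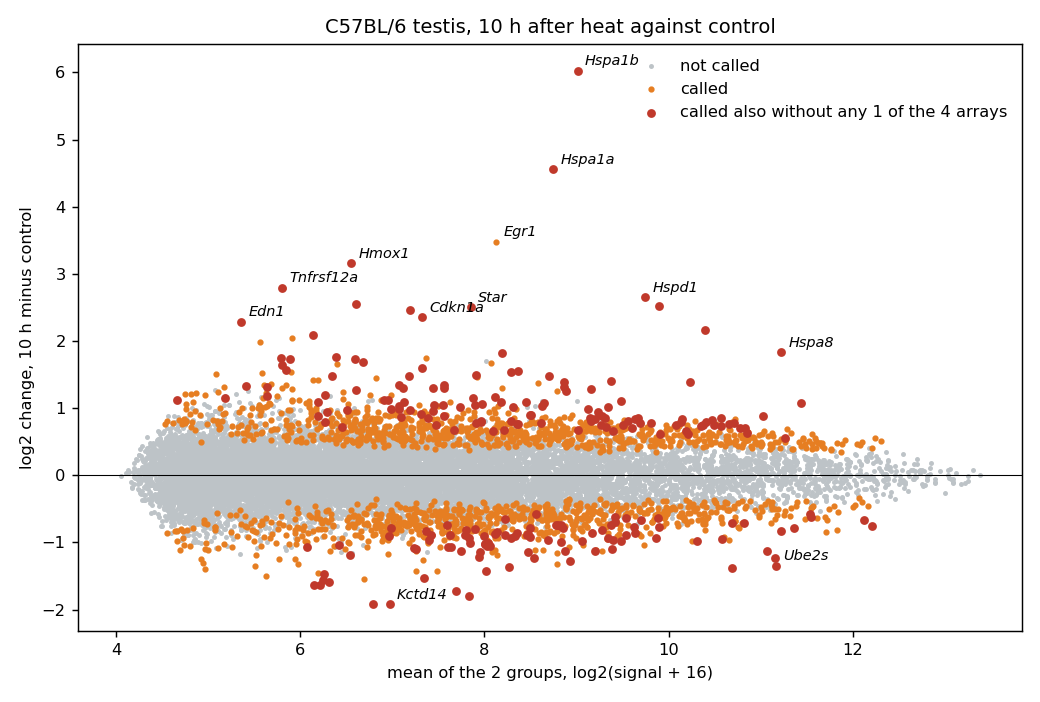
Log2 change at 10 h minus control against the mean of both groups on the log2(signal + 16) scale, 1 point per gene, with genes not called in grey, the other called genes in orange and the 228 stable calls in red. Hspa1b at 6.03 and Hspa1a at 4.56 lie above all other genes.

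The inducible HSP70 genes had the largest changes of all genes. Hspa1b had signals of 3473 and 4959 at 10 h, against 58.1 and 39.1 in controls. Hspa1a had 1394 and 3070 at 10 h, against 80.8 and 64.9 in controls. Both 10 h arrays lay far above both controls, and the 10 h arrays differed from each other by more in Hspa1a than in Hspb1 or Hspd1. The log2 change of Hspa1b was 6.03 (SE 0.66, adjusted p = 0.000486), a fold of 65.2, and that of Hspa1a was 4.56 (SE 0.67, adjusted p = 0.00226), a fold of 23.6. These 2 genes are near-identical copies, so their probe sets may each read both transcripts. Of 11 tested genes of the HSP70, HSP110 and HSP90 group, 4 rose and 0 fell, and all 4 were stable calls. The other members that rose were Hspa8, the constitutive HSC70, and Hsph1, an HSP110 that exchanges the nucleotide of HSP70. Hspa8 had 4590 and 4378 at 10 h, against 1214 and 1287 in controls, a log2 change of 1.83 (SE 0.11, adjusted p = 3.87e-06). Hsph1 had 977 and 1147 at 10 h, against 399 and 384 in controls, a log2 change of 1.40 (SE 0.17, adjusted p = 0.0011). Its other probe set gave 2.84, and the mean of both gave 2.12 (adjusted p = 5.83e-05). The HSP90 gene Hsp90aa1 had 6152 and 6277 at 10 h and 6317 and 6220 in controls, so the groups overlapped (log2 change -0.01, SE 0.10, adjusted p = 0.957). With the mean over all probe sets of a gene, 5 of the 11 genes rose and 0 fell. The median log2 change was then 0.61, against 0.35 by the brightest probe sets. Hspa4 was not called by its brightest probe set, while its other probe sets changed by 0.77 to 1.50, with control signals of 4.12 to 75.7.

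The mitochondrial chaperonin rose as a pair. Hspd1 encodes HSP60, the barrel in which mitochondrial proteins fold, and Hspe1 encodes HSP10, its lid. Hspd1 had 2107 and 2169 at 10 h, against 324 and 328 in controls, a log2 change of 2.66 (SE 0.17, adjusted p = 3.87e-06). Hspe1 had 2242 and 2312 at 10 h, against 419 and 348 in controls, a log2 change of 2.53 (SE 0.19, adjusted p = 1.42e-05), with 1.61 in its other probe set. The arrays of each group lay within 100 units of signal of each other in both genes, and the groups were far apart. Of 11 mitochondrial chaperones and proteases tested, these 2 rose and 0 fell.

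Of 9 small heat shock protein genes tested, 3 rose and 2 fell, and the 3 that rose were stable calls. Hspb1, the mouse HSP25, had 2833 and 2837 at 10 h, against 576 and 666 in controls, a log2 change of 2.17 (SE 0.15, adjusted p = 6.63e-06). Cryab, alpha-B crystallin, had 216 and 223 at 10 h, against 22.9 and 25.8 in controls, a log2 change of 2.54 (SE 0.23, adjusted p = 8.16e-05). Its other probe sets gave smaller changes, of 0.22 and 1.84, and the mean of all gave 1.53 (adjusted p = 0.000238). Hspb8, a partner of the BAG3 co-chaperone, had 71.0 and 101 at 10 h, against 15.1 and 13.2 in controls, a log2 change of 1.75 (SE 0.31, adjusted p = 0.00527). No signal of these 3 genes overlapped between the groups. Hspb6 had 213 and 197 at 10 h, against 302 and 318 in controls, and fell by 0.56 (adjusted p = 0.0166), a call that ended without any 1 of the 4 arrays (adjusted p up to 0.106). Hspb11 had 260 and 230 at 10 h, against 409 and 342 in controls, and fell by 0.58 (adjusted p = 0.0083), a call that ended without 10 h replicate 2 or control replicate 1 (adjusted p up to 0.0885).

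**Figure D2:**
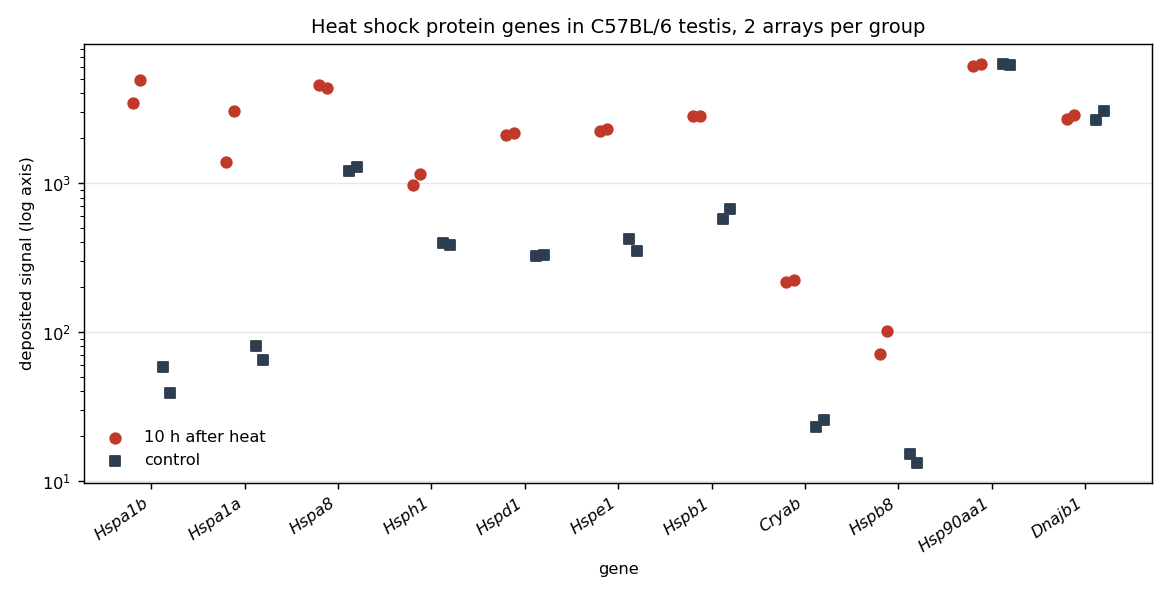
Deposited signal, on a log axis, of 11 heat shock protein genes on each C57BL/6 array, with 10 h after heat as red circles left of the controls as dark squares. The points of the 9 genes that rose do not overlap between groups, while those of Hsp90aa1 and Dnajb1 do. Levels of different genes are read by different probes and are not comparable.

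Promoter windows of these genes are shown because heat shock factor binds inverted repeats of the 5-base unit NGAAN. RefSeq windows (build GRCm38.p6) run from 250 bases before to 50 bases after each annotated start, and 705 of the 884 list members and named genes had one. Each line gives the window 5′ to 3′ on the gene's strand, with every GAANNTTC and TTCNNGAA in capitals, which mark a pair of units.
Hspa1b, chr17:34959189-34959488, minus strand: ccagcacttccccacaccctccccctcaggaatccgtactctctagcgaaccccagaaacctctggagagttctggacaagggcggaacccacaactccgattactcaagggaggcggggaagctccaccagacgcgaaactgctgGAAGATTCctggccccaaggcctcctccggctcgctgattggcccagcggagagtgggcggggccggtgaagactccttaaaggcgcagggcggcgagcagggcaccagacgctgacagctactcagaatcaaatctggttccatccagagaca
Hspe1, chr1:55087898-55088197, plus strand: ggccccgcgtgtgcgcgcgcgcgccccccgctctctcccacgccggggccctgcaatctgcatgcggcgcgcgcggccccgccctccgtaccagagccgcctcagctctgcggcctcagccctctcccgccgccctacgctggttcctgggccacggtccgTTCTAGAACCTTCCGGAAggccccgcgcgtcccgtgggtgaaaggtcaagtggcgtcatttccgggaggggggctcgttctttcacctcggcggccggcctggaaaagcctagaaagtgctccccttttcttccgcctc
Hspb1, chr5:135887669-135887968, plus strand: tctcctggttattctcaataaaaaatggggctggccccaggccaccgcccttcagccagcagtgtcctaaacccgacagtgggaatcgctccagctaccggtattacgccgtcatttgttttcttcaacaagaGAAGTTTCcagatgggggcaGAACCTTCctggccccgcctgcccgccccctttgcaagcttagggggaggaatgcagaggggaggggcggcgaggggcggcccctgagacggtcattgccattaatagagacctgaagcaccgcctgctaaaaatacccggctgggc
Hsph1, chr5:149636287-149636586, minus strand: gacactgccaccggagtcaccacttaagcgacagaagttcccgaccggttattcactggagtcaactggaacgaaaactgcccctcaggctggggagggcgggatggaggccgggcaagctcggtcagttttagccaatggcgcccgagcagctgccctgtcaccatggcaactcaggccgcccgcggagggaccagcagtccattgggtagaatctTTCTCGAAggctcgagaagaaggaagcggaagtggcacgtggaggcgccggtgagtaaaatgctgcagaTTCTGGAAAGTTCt
The Hspa1b window holds 1 pair, which begins 104 bases before the start, and the Hspa1a window, identical at 296 of 300 bases, holds it at the same place. Hspe1 lies head to head with Hspd1, and a window of Hspd1 on the opposite strand shares 285 bases with it. Both hold the same 3 overlapping pairs, which begin 89, 84 and 79 bases before the start of Hspe1. The Hspb1 window has pairs 117 and 97 bases before the start. The Hsph1 window has pairs that begin 33 bases before the start and 36 and 41 bases after it, of which the last 2 overlap. Chordc1, an HSP90 co-chaperone, has 5 pairs. Hspa8 and Cryab had no entry.

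The letters GAANNTTC, on either strand, occur in 7.86% of all 32851 windows, and in the windows of 7.45% of the 12634 tested genes that have one. They were present for 17 of 103 genes that rose at least 2-fold (16.5%), for 79 of 776 that rose (10.2%) and for 52 of 677 that fell (7.68%). TTCNNGAA occurs in 8.52% of all windows, and in the windows of 8.79% of the tested genes that have one. It was present for 14 of the 103 genes (13.6%), for 11.1% of those that rose and for 9.75% of those that fell. A run of 3 units, which is GAANNTTC followed by NNGAA or TTCNNGAA followed by NNTTC and so contains both pairs, occurs in 0.603% of windows and for 0.641% of tested genes. It was present for 3 of the 103 genes (2.91%), Hspd1, Hspe1 and Hsph1, of which Hspd1 and Hspe1 hold the same stretch of DNA. These matches are descriptions of letters, and binding was not measured.

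HSP40 proteins of the DNAJ family deliver clients to HSP70, and of 19 tested genes 3 rose and 0 fell. Dnaja1 had 2620 and 2406 at 10 h, against 1939 and 1880 in controls by its brightest probe set (log2 change 0.39, adjusted p = 0.048). Both of its other probe sets changed by 2.47, with mean signals of 1198 and 1550 at 10 h, against 204 and 266 in controls, and the mean of the 3 changed by 1.78 (adjusted p = 5.62e-06). Dnaja4 changed by 0.47 in its brightest probe set (adjusted p = 0.0196) and by 0.74 and 2.27 in the others, and the mean of the 3 changed by 1.16 (adjusted p = 0.00138). Dnajb4 changed by 0.50 (adjusted p = 0.0143), and the mean of its probe sets by 0.23 (adjusted p = 0.251). For the brightest probe sets none of the 3 was a stable call: those of Dnaja1 and Dnaja4 ended without any 1 of the 4 arrays (adjusted p up to 0.218 and 0.126), and that of Dnajb4 without 10 h replicate 2 or either control (up to 0.125). Dnajb1, a DNAJ gene induced by heat in many cells, had 2715 and 2855 at 10 h and 2670 and 3057 in controls, so the groups overlapped (log2 change -0.04, SE 0.13, adjusted p = 0.90). Of 10 HSP90 co-chaperones, 2 rose, Chordc1 by 0.92 (adjusted p = 0.0127) and Stip1, which links HSP70 to HSP90, by 0.48 (adjusted p = 0.0495). Chordc1 was no longer called without 10 h replicate 1 or either control (adjusted p up to 0.109), and Stip1 without any 1 array (up to 0.317).

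Among 9 regulators of the heat shock response, Hsbp1, whose product binds heat shock factor 1, fell and was a stable call. It had 3657 and 3605 at 10 h, against 6050 and 6220 in controls, a log2 change of -0.75 (SE 0.12, adjusted p = 0.00277). Hsf2 had 23.3 and 29.5 at 10 h and 11.2 and 24.4 in controls (log2 change 0.35, adjusted p = 0.321). Hsf1 was not analysed here. Of 12 testis-specific chaperones 2 rose and 1 fell. Pdilt, a protein disulfide isomerase of spermatids, had 789 and 872 at 10 h, against 456 and 427 in controls (log2 change 0.89, SE 0.16, adjusted p = 0.00574), a stable call. Hspa1l, the spermatid HSP70, had 2924 and 3005 at 10 h, against 1894 and 2198 in controls (log2 change 0.54, adjusted p = 0.0122). Hspa2, the HSP70 of spermatocytes, which is needed to finish meiosis, fell to 1527 and 1122 at 10 h, against 2199 and 2351 in controls (log2 change -0.79, SE 0.18, adjusted p = 0.0135). The call of Hspa1l ended without either 10 h array or control replicate 1 (adjusted p up to 0.113), and that of Hspa2 without 10 h replicate 2 or either control (up to 0.121). The cold-induced RNA-binding gene Cirbp had 250 and 252 at 10 h, below 355 and 320 in controls, but did not pass the test (log2 change -0.40, adjusted p = 0.0926).

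Of 22 antioxidant genes tested, 6 rose and 0 fell, and their median log2 change was 0.35, against 0.00 over all genes. Hmox1, heme oxygenase 1, which breaks down heme, had 294 and 238 at 10 h, against 5.65 and 29.8 in controls. The log2 change was 3.16 (SE 0.40, adjusted p = 0.00114), and no array of a group overlapped the other group. Sqstm1, the autophagy receptor p62, had 730 and 694 at 10 h, against 262 and 319 in controls (log2 change 1.25, adjusted p = 0.00114). Txnrd1, thioredoxin reductase, had 476 and 400 at 10 h, against 212 and 204 in controls (log2 change 1.02, adjusted p = 0.00276), while its other probe set gave -0.01 and the mean of both 0.37 (adjusted p = 0.368). For Sqstm1 the mean over probe sets was 0.72 (adjusted p = 0.00202). These 3 were stable calls. Nfe2l2, which encodes the transcription factor NRF2 that drives such genes, rose by 0.71 (adjusted p = 0.00694), a call that ended without 10 h replicate 1 or control replicate 2 (adjusted p up to 0.0598), and its other probe set gave -0.09 and the mean of both 0.31 (adjusted p = 0.248).

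Of 24 genes of the unfolded protein response in the endoplasmic reticulum 2 rose and 2 fell (8.33% each), near the shares of all genes (6.00% and 5.19%). Of these, 1 was a stable call. Xbp1, its spliced transcription factor, had 469 and 353 at 10 h, against 186 and 179 in controls (log2 change 1.09, SE 0.18, adjusted p = 0.00352), with changes of -0.04 to 0.96 in its other probe sets and 0.71 in the mean of all (adjusted p = 0.014). Of 25 genes of the integrated stress response and amino acid supply 5 rose and 0 fell. Asns, asparagine synthetase, had 1708 and 1632 at 10 h, against 968 and 1028 in controls (log2 change 0.73, SE 0.11, adjusted p = 0.00223), a stable call. Atf4, the factor that drives this response, rose by 0.77 (adjusted p = 0.0186), Slc3a2, a subunit of amino acid transporters, by 0.67 (adjusted p = 0.0102), and Ppp1r15a, which ends the response, by 1.19 (adjusted p = 0.0144). The call of Atf4 ended without any 1 array (adjusted p up to 0.141) and with the mean over its probe sets (0.51, adjusted p = 0.15), that of Slc3a2 without 10 h replicate 2 or control replicate 1 (up to 0.0927), and that of Ppp1r15a without 10 h replicate 2 or either control (up to 0.132). Of 19 genes of the hypoxia response 6 rose and 0 fell. Its stable calls were P4ha1, a collagen prolyl hydroxylase, at 95.0 and 107 at 10 h, against 31.1 and 39.4 in controls (log2 change 1.19, adjusted p = 0.00224), and Aldoa, the glycolytic aldolase, at 1928 and 2241 at 10 h, against 1234 and 1205 in controls (log2 change 0.76, adjusted p = 0.0043). The other probe set of P4ha1 gave -0.09. Over all probe sets the mean changed by 0.55 for P4ha1 (adjusted p = 0.0362) and by 0.49 for Aldoa (adjusted p = 0.0229).

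Among targets of p53, the factor that halts the cell cycle after damage, 9 of 22 rose and 2 fell (40.9% and 9.09%), with a median log2 change of 0.58. Cdkn1a, the cyclin-dependent kinase inhibitor p21, had 383 and 315 at 10 h, against 66.3 and 45.1 in controls. Its log2 change was 2.36 (SE 0.26, adjusted p = 0.000486), a fold of 5.12. Btg2, an antiproliferative gene, had 254 and 416 at 10 h, against 45.7 and 46.6 in controls (log2 change 2.46, SE 0.38, adjusted p = 0.00277). Both groups of both genes were clearly apart. Ccng1, cyclin G1, had 325 and 213 at 10 h, against 69.9 and 82.7 in controls (log2 change 1.60, adjusted p = 0.00176). Gadd45a, a growth arrest gene, had 60.2 and 64.5 at 10 h, against 16.8 and 14.1 in controls (log2 change 1.32, adjusted p = 0.0012). These 4 were the stable calls of the list. Mdm2, the ubiquitin ligase of p53, rose by 0.56 (adjusted p = 0.0266) and the BH3-only gene Pmaip1 by 0.83 (adjusted p = 0.0135), while Zmat3 fell by 0.70 (adjusted p = 0.0309) and Ddit4l by 0.79 (adjusted p = 0.00694). The call of Mdm2 ended without 10 h replicate 2 or either control (adjusted p up to 0.193), that of Pmaip1 without 10 h replicate 1 or either control (up to 0.117), that of Zmat3 without any 1 array (up to 0.159) and that of Ddit4l without 10 h replicate 1 or control replicate 1 (up to 0.0504). The other probe sets of Ddit4l gave 0.11 and 0.22 and that of Mdm2 gave -0.16, and neither gene was called with the mean over its probe sets (-0.15 and 0.23, adjusted p = 0.476 and 0.443).

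The promoter window of Btg2 is shown because it holds TGACGTCA, the palindrome bound by CREB and ATF factors, in capitals 166 bases before the start.
Btg2, chr1:134079106-134079405, minus strand: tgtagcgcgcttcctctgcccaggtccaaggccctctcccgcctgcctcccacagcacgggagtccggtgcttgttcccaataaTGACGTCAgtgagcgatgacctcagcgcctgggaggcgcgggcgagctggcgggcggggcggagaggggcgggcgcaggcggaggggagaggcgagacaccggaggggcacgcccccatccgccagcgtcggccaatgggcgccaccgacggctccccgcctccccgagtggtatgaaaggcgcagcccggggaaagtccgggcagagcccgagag
TGACGTCA occurs in 1.79% of all windows and for 3.12% of tested genes with a window, 5.80% of those that rose and 3.55% of those that fell. The p53 half-site, a decamer searched on both strands, was present for 8.38% of genes that rose, 9.31% of those that fell and 8.40% of those tested.

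Of 31 genes of the BCL2 family, caspases and death receptors 1 rose and 2 fell, shares of 3.23% and 6.45%. None was a stable call. With the mean over all probe sets of a gene 3 of 30 rose and 2 fell, and with median centring 0 of 30 rose and 2 fell. Mcl1 was not called by its brightest probe set, while its other probe sets changed by 0.73 to 1.06. Casp2 rose by 0.53 (adjusted p = 0.0414), and Bad, a proapoptotic BH3-only gene, fell by 0.78 (adjusted p = 0.026). Birc5, survivin, which also acts in mitosis, had 391 and 491 at 10 h, against 687 and 688 in controls (log2 change -0.63, adjusted p = 0.011). Without any 1 array the calls of Casp2 and Bad ended (adjusted p up to 0.196 and 0.151), and that of Birc5 ended without 10 h replicate 1 or either control (up to 0.0953). Bax was not analysed here.

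Immediate early genes, which growth factors and stress switch on without new protein synthesis, had the largest share of calls among the lists of 10 or more members. Of 34 tested, 17 rose (50.0%) and 1 fell, and the median log2 change was 0.79. Tnfrsf12a, the receptor of the cytokine TWEAK, had 142 and 121 at 10 h, against 3.31 and 7.27 in controls, where it was under the signal of 17.5 set as the filter (log2 change 2.79, SE 0.36, adjusted p = 0.00126). Ier3 had 110 and 153 at 10 h, against 16.2 and 20.1 in controls (log2 change 2.10, SE 0.25, adjusted p = 0.000853). Klf6, a zinc finger factor, had 79.1 and 106 at 10 h, against 17.4 and 15.7 in controls (log2 change 1.73, SE 0.24, adjusted p = 0.00162). The mean over the probe sets of Klf6 changed by 1.05 (adjusted p = 0.00292). With Btg2 these were the 4 stable calls of the list.

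The classical transcription factors of that list varied more between the 10 h arrays. Egr1 had 596 and 1410 at 10 h, against 66.0 and 69.5 in controls (log2 change 3.48, SE 0.72, adjusted p = 0.01). Atf3 had 73.4 and 227 at 10 h, against 2.91 and 8.19 in controls (log2 change 2.79, SE 0.61, adjusted p = 0.0131). Jun had 126 and 228 at 10 h, against 50.9 and 53.9 in controls (log2 change 1.44, SE 0.33, adjusted p = 0.0141). In these 3 genes replicate 2 was the higher 10 h array, and both 10 h arrays lay above both controls. Their calls ended without 10 h replicate 2 or either control, with adjusted p up to 0.0838 for Egr1, 0.115 for Atf3 and 0.126 for Jun. Fos had 62.4 and 96.5 at 10 h, against 17.6 and 0.80 in controls (log2 change 1.98, SE 0.57, adjusted p = 0.0393), a call lost without any 1 array (adjusted p up to 0.260). Of the 34 genes, 26 read higher in replicate 2 than in replicate 1 at 10 h and 13 in controls, against 8128 and 7937 of all 15762 genes. The part of this spread in the changes of the list was not tested. Nr4a2, a nuclear receptor gene, fell to 4.52 and 2.11 at 10 h, against 27.5 and 42.6 in controls (log2 change -1.39, adjusted p = 0.0393), a call that ended without any 1 array (adjusted p up to 0.218) and with the mean over its probe sets (-0.35, adjusted p = 0.0927).

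Genes of Leydig cell steroid synthesis rose at its first steps. Of 10 steroid synthesis genes 3 rose and 0 fell. Star, which carries cholesterol into mitochondria, had 602 and 477 at 10 h, against 87.0 and 75.7 in controls (log2 change 2.51, SE 0.22, adjusted p = 5.35e-05), a fold of 5.68. Cyp11a1, which cuts the side chain of cholesterol, had 528 and 609 at 10 h, against 257 and 265 in controls (log2 change 1.07, SE 0.15, adjusted p = 0.00191). The 2 genes were stable calls, and their groups did not overlap. The call of Cyp11a1 ended with the mean over its probe sets (0.56, adjusted p = 0.0678). Cyp17a1, which acts later in the path to testosterone, rose by 0.76 (adjusted p = 0.0231), a call that ended without any 1 array (adjusted p up to 0.160). The same 3 genes were those that rose among 11 Leydig cell markers, whose median log2 change was -0.09 and whose summed signal was 8701 and 10110 at 10 h, against 8065 and 7677 in controls. Of 19 genes of cholesterol synthesis and uptake 3 rose and 0 fell, led by Cyp51, lanosterol demethylase, at 668 and 685 at 10 h, against 411 and 354 in controls (log2 change 0.80, adjusted p = 0.00521), a call that ended without control replicate 2 (adjusted p = 0.0521). The mean over its probe sets changed by 0.51 (adjusted p = 0.0221).

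Sertoli cell markers rose in part. Of 20 tested, 5 rose and 0 fell, and the median log2 change was 0.18, against 0.00 over all genes. Their summed signal, in which the brightest members weigh most, was 18580 and 18480 at 10 h, against 13560 and 13650 in controls. Vim, the intermediate filament of Sertoli and other somatic cells, was the stable call, with 1085 and 980 at 10 h, against 485 and 458 in controls (log2 change 1.10, SE 0.14, adjusted p = 0.0011). Sox9, the Sertoli transcription factor, had 176 and 158 at 10 h, against 84.0 and 103 in controls (log2 change 0.74, adjusted p = 0.0102). Kitl, the stem cell factor that acts on germ cells, had 463 and 327 at 10 h, against 161 and 207 in controls (log2 change 1.03, adjusted p = 0.0135). The groups did not overlap in these 3 genes. Clu, clusterin, rose by 0.56 (adjusted p = 0.00481). The calls of Sox9 and Kitl ended without 10 h replicate 1 or control replicate 1 (adjusted p up to 0.0949 and 0.111), and that of Clu without control replicate 1 (adjusted p = 0.0548). The calls of Sox9 and Kitl also ended with the mean over their probe sets (0.60 and 0.55, adjusted p = 0.0821 and 0.0602). Of 23 junction genes of the blood-testis barrier 5 rose and 0 fell, with the surface protein gene Cd24a as the stable call (log2 change 0.87, adjusted p = 0.0043, and 0.53 with the mean over its probe sets). Of 26 genes of collagens, laminins and matrix 5 rose and 0 fell, with Col4a1, a basement membrane collagen, as the stable call at 306 and 268 at 10 h, against 136 and 130 in controls (log2 change 1.02, adjusted p = 0.00226). Of 13 peritubular myoid markers 1 rose, Tagln by 0.78 (adjusted p = 0.039), a call that ended without 10 h replicate 1 or either control (adjusted p up to 0.273). Of 19 macrophage and leukocyte markers 1 fell, Cd163, which read 2.02 and 0.79 at 10 h and 14.8 and 16.5 in controls, all under the filter signal of 17.5 (adjusted p = 0.0139, and up to 0.0874 without any 1 array).

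**Figure D3:**
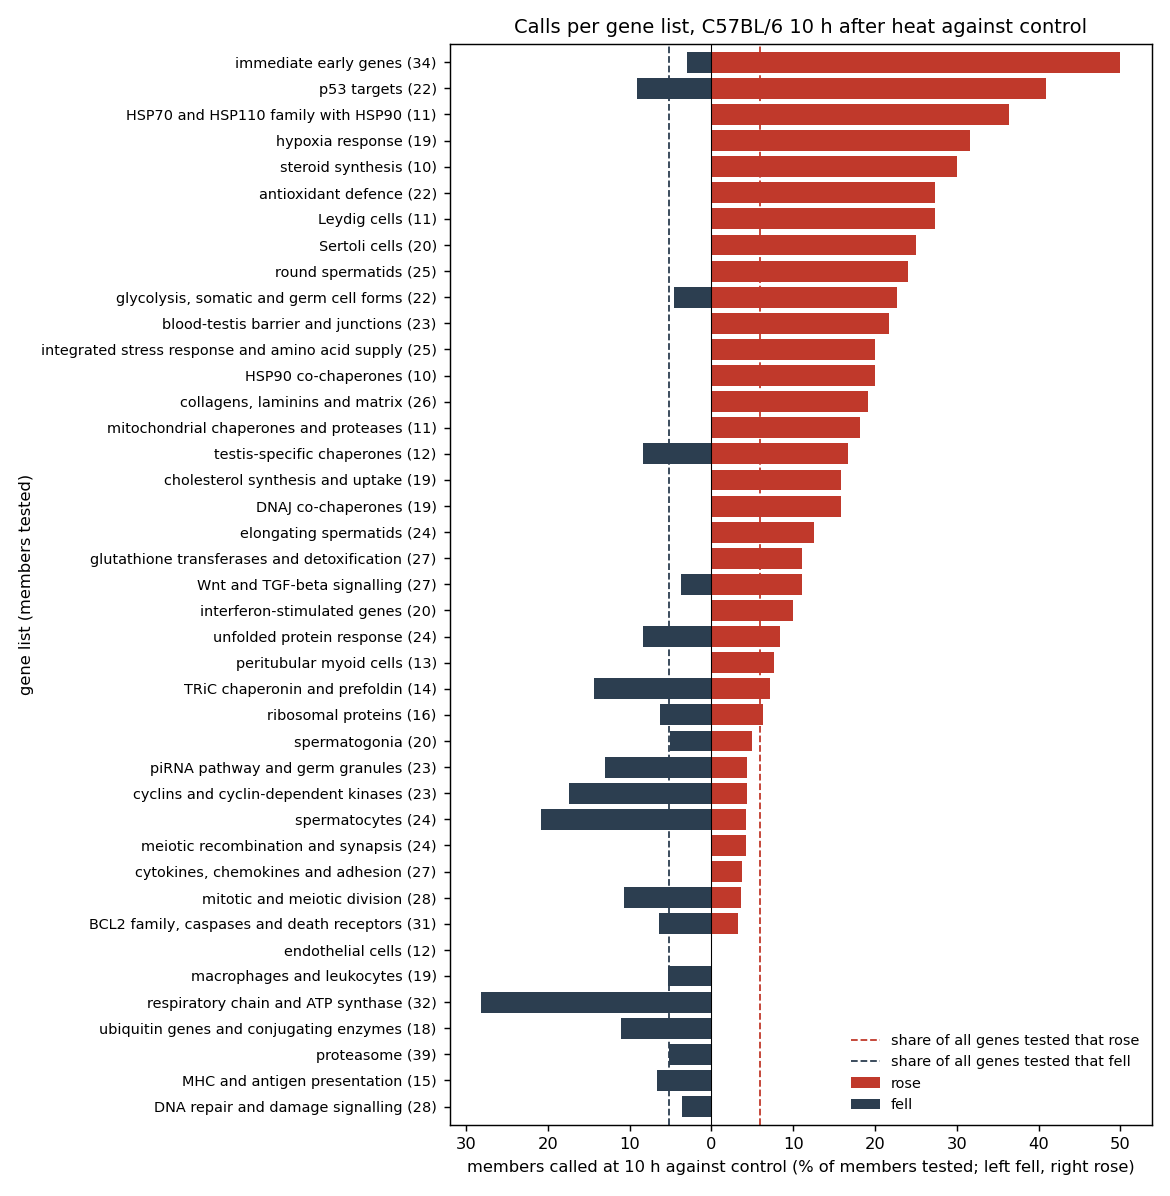
Share of the tested members of each gene list, for lists with 10 or more tested members, that rose (red, to the right) or fell (dark, to the left) in C57BL/6 testis at 10 h against control, with dashed lines at the shares over all genes tested (6.00% and 5.19%). Immediate early genes (50.0%) and p53 targets (40.9%) reach farthest right, and the respiratory chain (28.1%) and spermatocyte markers (20.8%) farthest left.

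Several markers of meiotic cells and genes of cell division fell. Of 24 spermatocyte markers 1 rose and 5 fell (20.8%), with a median log2 change of -0.33, and for 16 of them both 10 h arrays lay below both controls, where this held for 28.4% of all genes. Zfp42 was the stable call among them, with 86.9 and 74.8 at 10 h, against 145 and 156 in controls (log2 change -0.78, SE 0.12, adjusted p = 0.00286). Piwil1, the PIWI protein of meiotic cells that binds piRNAs, had 638 and 549 at 10 h, against 1153 and 1041 in controls (log2 change -0.87, adjusted p = 0.00759), a call that ended without 10 h replicate 2 or control replicate 1 (adjusted p up to 0.0677). Of 23 genes of the piRNA pathway and germ granules 1 rose and 3 fell. The stable call was Pld6, a mitochondrial protein needed to make piRNAs, with 230 and 223 at 10 h, against 548 and 556 in controls (log2 change -1.23, SE 0.16, adjusted p = 0.0012).

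Of 28 genes of mitotic and meiotic division 1 rose (3.57%) and 3 fell (10.7%), against 6.00% and 5.19% of all genes, with no stable call. In 18 of the 28 both 10 h arrays lay below both controls, where this held for 28.4% of all genes. The 3 that fell included Birc5, given above, and Bub1b, a spindle checkpoint kinase, at 180 and 182 at 10 h, against 268 and 356 in controls (log2 change -0.72, adjusted p = 0.0272), a call that ended without any 1 array (adjusted p up to 0.216) and with the mean over its probe sets (-0.45, adjusted p = 0.197). Of 23 cyclins and cyclin-dependent kinases 1 rose and 4 fell. Cks2, a kinase subunit that germ cells need in meiosis, was the stable call and had 1628 and 1345 at 10 h, against 3538 and 3441 in controls (log2 change -1.23, SE 0.19, adjusted p = 0.00276). Cdk1, the kinase that starts division, had 269 and 252 at 10 h, against 478 and 557 in controls (log2 change -0.95, adjusted p = 0.0135), a call that ended without any 1 array (adjusted p up to 0.101). Ube2s, a ubiquitin-conjugating enzyme of the anaphase-promoting complex, had 1678 and 1220 at 10 h, against 3422 and 3913 in controls (log2 change -1.35, SE 0.16, adjusted p = 0.000906). It was a stable call, and its other probe set gave -0.13 and the mean of both -0.74 (adjusted p = 0.00943). Of 24 genes of meiotic recombination and synapsis 1 rose and 0 fell.

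Of 20 spermatogonial markers 1 rose and 1 fell (5.0% each), shares below those of all genes (6.00% and 5.19%). Both were stable calls. Stra8, which retinoic acid switches on before meiosis, had 236 and 216 at 10 h, against 117 and 99.5 in controls (log2 change 0.96, SE 0.14, adjusted p = 0.00226). Id4, a marker of spermatogonial stem cells that spermatocytes also express, had 338 and 267 at 10 h, against 673 and 681 in controls (log2 change -1.13, SE 0.18, adjusted p = 0.00326), with -0.70 in the mean over its probe sets (adjusted p = 0.0135). In the main fit 6 of 25 round (24.0%) and 3 of 24 elongating (12.5%) spermatid markers rose and 0 fell, against 6.00% and 5.19% of all genes. With median centring 3 and 1 rose, and with an intensity trend in the variance prior 9 and 5. With the mean over probe sets 6 and 3 rose, and 1 round spermatid marker fell. None of the elongating spermatid markers was a stable call. Besides Pdilt, given above, the spermatid markers that rose included Catsper1, a calcium channel of sperm, at 827 and 1034 at 10 h, against 533 and 558 in controls (log2 change 0.75, adjusted p = 0.00852), and Fscn3, a testis fascin, at 1543 and 1489 at 10 h, against 808 and 982 in controls (log2 change 0.76, adjusted p = 0.00742). The call of Catsper1 ended without 10 h replicate 2 or control replicate 1 (adjusted p up to 0.0792) and that of Fscn3 without control replicate 1 (adjusted p = 0.0764).

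Of 32 genes of the respiratory chain and ATP synthase 0 rose and 9 fell (28.1%), with a median log2 change of -0.18. Both 10 h arrays lay below both controls in 20 of them, where this held for 28.4% of all genes. The number that fell depended on the processing. It was 3 with median centring, 3 with the C57BL/6 arrays alone, 6 with the mean over probe sets and 13 with an intensity trend in the variance prior. Cox8c, a testis form of a cytochrome oxidase subunit, was the stable call, with 1910 and 2080 at 10 h, against 3341 and 3561 in controls (log2 change -0.79, SE 0.13, adjusted p = 0.00317), while its other probe set gave 0.28 and the mean of both, -0.25, was not called (adjusted p = 0.345). Ndufb3, of complex I, had 529 and 427 at 10 h, against 860 and 781 in controls (log2 change -0.77, adjusted p = 0.00765). Cyct, the testis cytochrome c, had 1215 and 1145 at 10 h, against 1980 and 1895 in controls (log2 change -0.71, adjusted p = 0.00833). The calls of Ndufb3 and Cyct ended without 10 h replicate 2 or control replicate 1 (adjusted p up to 0.0721 and 0.0669). Of 39 proteasome genes 0 rose and 2 fell, and of 28 DNA repair genes 0 rose and 1 fell, shares at or below those of all genes. Of 27 cytokine, chemokine and adhesion genes 1 rose, of 20 interferon-stimulated genes 2 rose, and of 15 genes of antigen presentation 1 fell, none of them a stable call. Among the remaining lists, 1 of 14 genes of the TRiC chaperonin and prefoldin rose and 2 fell, 0 of 18 ubiquitin genes and conjugating enzymes rose and 2 fell, 5 of 22 glycolysis genes rose and 1 fell, and 3 of 27 genes of Wnt and TGF-beta signalling rose and 1 fell. Of 16 ribosomal protein genes 1 rose and 1 fell, the stable call Rpl27 by 0.57 (adjusted p = 0.00429), and of 27 genes of glutathione transfer and detoxification 3 rose, with Ephx1, epoxide hydrolase, as the stable call (log2 change 0.78, adjusted p = 0.00401). Of 2 red blood cell markers 0 were called.

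The largest falls were in genes of low to middle signal outside these lists. Kctd14 had 32.4 and 70.0 at 10 h, against 238 and 218 in controls (log2 change -1.92, SE 0.32, adjusted p = 0.00375). Zfp423, a zinc finger factor, had 32.0 and 21.1 at 10 h, against 102 and 129 in controls (log2 change -1.63, adjusted p = 0.00226), and Rnf112, a ring finger gene, had 30.4 and 18.8 at 10 h, against 106 and 111 in controls (log2 change -1.63, adjusted p = 0.00226). Both 10 h arrays lay below both controls in each. Zfp389, Zfp688, Arhgef15, Elfn2 and Fgf14 fell by 1.72, 1.59, 1.56, 1.53 and 1.47 and were stable calls too. Vapb, an endoplasmic reticulum tether, fell by 1.92 (adjusted p = 0.0016) and Msi2, an RNA-binding protein, by 1.79 (adjusted p = 0.00242), but their other probe sets gave -0.02 to 0.33 and -0.74 to 0.38. The other probe sets of Fgf14 gave -1.09 to 0.28 and that of Arhgef15 gave -0.55. With the mean over all probe sets the change was -0.53 for Vapb, -0.41 for Msi2, -0.62 for Fgf14, -0.71 for Arhgef15 and -1.02 for Rnf112, and all 5 were called. Of transcripts without a gene name, 4932702P03Rik fell by 1.36 and was a stable call. Tasor fell by 1.54 (adjusted p = 0.0131) and Myorg by 1.50 (adjusted p = 0.00742). The call of Tasor ended without 10 h replicate 2 or either control (adjusted p up to 0.118), and that of Myorg without 10 h replicate 2 or control replicate 1 (up to 0.0722). Lef1, a transcription factor of Wnt signalling, had 54.5 and 153 at 10 h, against 306 and 250 in controls (log2 change -1.42, SE 0.33, adjusted p = 0.0166), a call lost without 10 h replicate 1 or either control (adjusted p up to 0.137).

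The next comparison set 10 h against 8 h in C57BL/6, which needs no control array, although it shares the 10 h arrays with the comparison above. The 3' over 5' signal was higher on both 10 h arrays, at 2.45 and 2.37 for beta-actin at 10 h, against 2.04 and 1.996 at 8 h, and 1.11 and 1.33 for Gapdh at 10 h, against 0.899 and 0.967 at 8 h. The part of this in the calls was not tested. Of 15762 genes, 1390 (8.82%) were called, 767 (4.87%) higher and 623 (3.95%) lower at 10 h. When each array was centred on its median instead, 702 were called, 292 higher and 410 lower, so the balance of directions depends on the scaling. The number fell to 221 without 10 h replicate 1, 365 without 10 h replicate 2, 451 without 8 h replicate 1 and 71 without 8 h replicate 2, and 53 genes (0.336%) were called throughout, 33 higher (0.209%) and 20 lower (0.127%). The 4 arrays fitted alone gave 0 calls (limma), with 3466 genes at an unadjusted p under 0.05.

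Cdkn1a, Pard6b and Tnfrsf12a rose between these times. Cdkn1a had 383 and 315 at 10 h, against 88.2 and 62.3 at 8 h (log2 change 2.01, adjusted p = 0.0027). Pard6b, a cell polarity gene, had 139 and 137 at 10 h, against 25.1 and 17.9 at 8 h (log2 change 2.05, adjusted p = 4.75e-05). Tnfrsf12a had 142 and 121 at 10 h, against 11.5 and 25.4 at 8 h (log2 change 2.12, adjusted p = 0.007), and its call ended without 10 h replicate 1 (adjusted p = 0.0515). The groups did not overlap in these 3 genes. Hspd1 rose again to 2107 and 2169 at 10 h, against 834 and 761 at 8 h (log2 change 1.41, adjusted p = 0.00211), Hspa8 by 0.85 (adjusted p = 0.00299, and 0.069 with the mean over its probe sets) and Hspe1 by 1.08 (adjusted p = 0.00766, 0.0707 without 8 h replicate 2). With the mean over probe sets Cdkn1a changed by 1.24 and Kitl by 0.67, and both stayed called. Sox9 rose by 1.13 (adjusted p = 0.00299) and Kitl by 1.50 (adjusted p = 0.00437), and both calls held without any 1 of these 4 arrays. Star had 602 and 477 at 10 h, against 234 and 252 at 8 h (log2 change 1.09, adjusted p = 0.011), a call that ended without 10 h replicate 1 or either 8 h array (adjusted p up to 0.0845).

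Hspa1b, Cryab and the immediate early gene Egr1 were near or above their 10 h signal at 8 h already. Hspa1b had 3473 and 4959 at 10 h and 5309 and 5453 at 8 h (log2 change -0.37, SE 0.66, adjusted p = 0.789). Cryab had 216 and 223 at 10 h and 174 and 212 at 8 h (log2 change 0.18, SE 0.23, adjusted p = 0.709). Egr1 had 596 and 1410 at 10 h and 1970 and 1637 at 8 h (log2 change -0.96, SE 0.72, adjusted p = 0.471). These differences did not pass the test. Bhlhe40, a clock-related repressor, and Clcn5, a chloride channel, rose by 2.22 and 1.79 (adjusted p = 0.0142 and 0.0229). The call of Bhlhe40 ended without 10 h replicate 2 or either 8 h array (adjusted p up to 0.103) and that of Clcn5 without 10 h replicate 1 or either 8 h array (up to 0.158). The mean over the probe sets of Clcn5 changed by 0.63 (adjusted p = 0.0251). Clcn5 had 313 and 169 at 10 h and 311 and 245 in controls, so against controls it was not called (adjusted p = 0.78).

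Several genes fell between 8 and 10 h after reading near the controls at 8 h. Ube2s had 1678 and 1220 at 10 h, against 4078 and 3733 at 8 h (log2 change -1.44, adjusted p = 0.00162). Kctd14 had 32.4 and 70.0 at 10 h, against 241 and 227 at 8 h (log2 change -1.95, adjusted p = 0.0059). No array overlapped between the times in either gene. Rnf112 fell by 1.44 (adjusted p = 0.00619), Zfp688 by 1.44 (adjusted p = 0.00536) and Neil3, a DNA glycosylase, by 1.45 (adjusted p = 0.0349). The call of Kctd14 ended without 10 h replicate 1 or 8 h replicate 2 (adjusted p up to 0.0574), those of Rnf112 and Zfp688 without 8 h replicate 2 (0.0707 and 0.0593), and that of Neil3 without 10 h replicate 1 or either 8 h array (up to 0.239) and with the mean over its probe sets (0.14). Over all probe sets the mean changed by -0.64 for Ube2s, -1.27 for Kctd14 and -0.79 for Rnf112, and these stayed called.

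**Figure D4:**
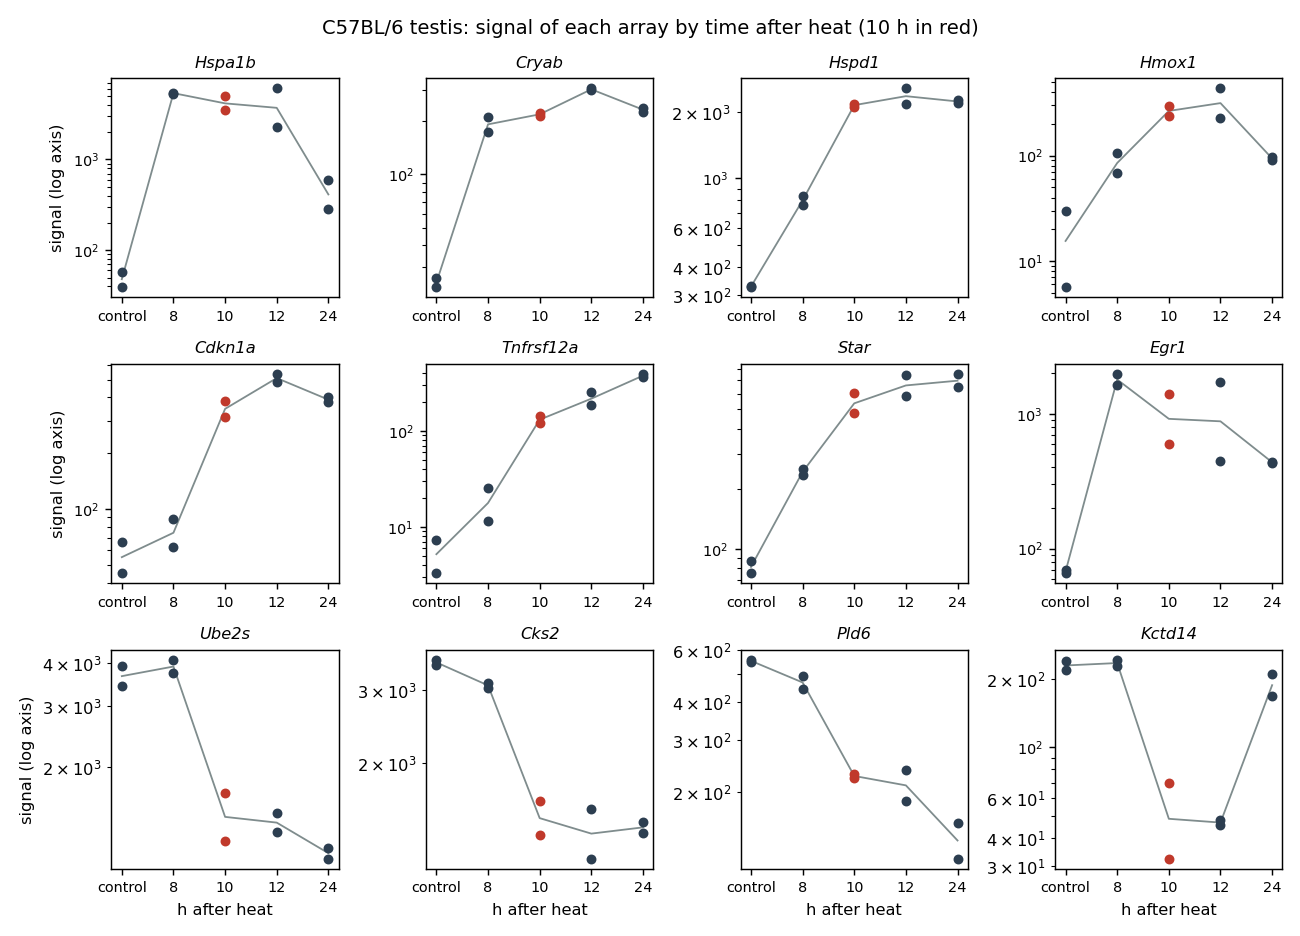
Signal, on a log axis, of 12 genes on each C57BL/6 array in controls and 8, 10, 12 and 24 h after heat, with 10 h in red and lines through the group means of log2(signal + 16). Hspa1b, Cryab and Egr1 are high from 8 h, Cdkn1a and Tnfrsf12a rise at 10 h, and Ube2s, Cks2 and Kctd14 drop between 8 and 10 h.

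Between 10 and 12 h no gene was called by limma (0%), with 1429 genes (9.07%) at an unadjusted p under 0.05. With an intensity trend in the variance prior 3 genes were called, and 14 without 12 h replicate 1. The 12 h arrays differed from each other: Hspa1b had 2260 and 6071, and Egr1 446 and 1722, on 12 h replicates 1 and 2, against 3473 and 4959, and 596 and 1410, on 10 h replicates 1 and 2. The 3' over 5' signal of beta-actin was 3.57 on 12 h replicate 2. Hspd1 had 2165 and 2544 at 12 h, against 2107 and 2169 at 10 h, and Tnfrsf12a 255 and 184 at 12 h, against 142 and 121 at 10 h.

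The heat effect at 10 h was then compared between strains. AKR/N arrays share no array with C57BL/6. The 3' over 5' signal of Gapdh was higher at 10 h than in controls in C57BL/6, as given above, but was 1.07 and 1.08 at 10 h, against 1.32 and 1.19 in controls, in AKR/N. That of beta-actin was 1.87 and 1.99 at 10 h, against 2.92 and 2.39 in controls, in AKR/N. The part of these values in the strain comparison was not tested. Of the 946 genes that rose in C57BL/6, 781 (82.6%) had a positive change in AKR/N, and of the 818 that fell 704 (86.1%) had a negative one, against the same sign in 62.3% of all genes. For the stable calls these shares were 93.2% and 94.8%. The median log2 change of the stable calls was 1.02 in C57BL/6 and 0.41 in AKR/N for those that rose, and -0.94 in C57BL/6 and -0.40 in AKR/N for those that fell. The genes were called by the change on the C57BL/6 arrays, with a spread, probe set and filter taken from all 20 arrays, AKR/N included. These medians therefore cannot be set against each other, and the shares of the same sign are descriptions rather than an independent check. Hspa1b changed by 6.03 in C57BL/6 and by 4.45 in AKR/N (difference 1.58, SE 0.93, adjusted p = 0.53), where AKR/N control replicate 2 had 493 against 64.7 on replicate 1. Cryab changed by 2.54 and 2.71, and Hmox1 by 3.16 and 3.01, in C57BL/6 and AKR/N.

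A test of the difference itself called 5 genes (0.0317%), 3 with the higher heat effect in C57BL/6 (0.0190%) and 2 with the lower (0.0127%). Star had 602 and 477 in C57BL/6 at 10 h, against 87.0 and 75.7 in C57BL/6 controls, and 521 and 337 in AKR/N at 10 h, against 304 and 301 in AKR/N controls. Its heat effect was 2.05 higher in C57BL/6 (SE 0.31, adjusted p = 0.0451). The C57BL/6 controls were lower than the AKR/N controls, while the 10 h arrays of the strains overlapped. Aldh18a1, which makes proline, had 122 and 116 in C57BL/6 at 10 h, against 29.4 and 35.9 in C57BL/6 controls, and 64.8 and 62.9 in AKR/N at 10 h, against 69.8 and 66.0 in AKR/N controls (difference 1.55, SE 0.19, adjusted p = 0.0181). Morf4l2, a chromatin gene, had 1995 and 1885 in C57BL/6 at 10 h, against 766 and 693 in C57BL/6 controls, and 1051 and 850 in AKR/N at 10 h, against 1050 and 882 in AKR/N controls (difference 1.42, SE 0.22, adjusted p = 0.0461). In both of these genes the AKR/N groups overlapped or lay close together.

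Smc4, a subunit of the condensin that packs chromosomes, had 1478 and 1392 in C57BL/6 at 10 h, against 3119 and 3219 in C57BL/6 controls, and 2702 and 3294 in AKR/N at 10 h, against 1364 and 2050 in AKR/N controls (difference -1.96, SE 0.26, adjusted p = 0.0261). The changes ran in opposite directions. Within C57BL/6 the mean over its probe sets changed by -0.49 and did not pass the test (adjusted p = 0.138). The transcript 1700104B16Rik had 489 and 500 in C57BL/6 at 10 h, against 1010 and 964 in C57BL/6 controls, and 22.6 and 20.6 in AKR/N at 10 h, against 14.3 and 14.9 in AKR/N controls (difference -1.27, SE 0.18, adjusted p = 0.0327). Its AKR/N signals lay near the filter of 17.5. None of the 5 differences was called throughout when each of the 8 arrays was left out in turn: without C57BL/6 10 h replicate 1, C57BL/6 10 h replicate 2, C57BL/6 control replicate 1, AKR/N 10 h replicate 2 or AKR/N control replicate 1 the number called was 0, without C57BL/6 control replicate 2 it was 2, without AKR/N 10 h replicate 1 it was 5 and without AKR/N control replicate 2 it was 4, of which 1, 4 and 2 were among these 5 genes. Over those fits the adjusted p reached 0.175 for Star, 0.143 for Aldh18a1, Smc4 and 1700104B16Rik, and 0.187 for Morf4l2. With the mean over all probe sets of a gene the differences were 1.20 for Star, 0.56 for Aldh18a1 and -0.92 for Smc4, and these 3 were then not called. The other probe sets of Aldh18a1 changed by -0.19 to 0.52 in C57BL/6 at 10 h against control, and those of Smc4 by -0.21 and -0.12.

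**Figure D5:**
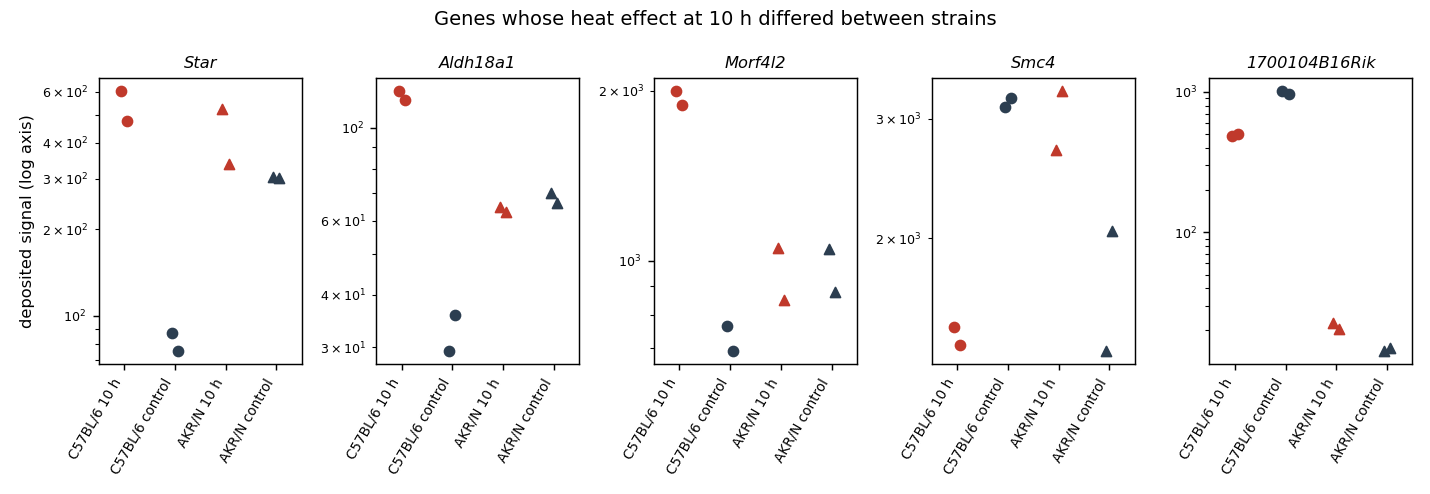
Signal, on a log axis, of the 5 genes whose heat effect at 10 h differed between strains, on each array of C57BL/6 at 10 h, C57BL/6 controls, AKR/N at 10 h and AKR/N controls, with 10 h in red and controls dark, circles for C57BL/6 and triangles for AKR/N. Star reads higher at 10 h in both strains, with lower controls in C57BL/6. Aldh18a1 and Morf4l2 rise in C57BL/6, and Smc4 falls in C57BL/6 but not in AKR/N.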

How the data were processed

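Testis RNA of 20 samples, 2 arrays in each of 10 groups of strain and time, was labelled with biotin and hybridised to the Affymetrix Mouse Genome 430 2.0 chip, per the labels. The deposited values are intensities that the authors had scaled on a linear scale; in them every array has a trimmed mean (2% at each end) of 125, while neither software nor summary method was found in the labels or file. Of 45101 probe sets, 64 are controls, 34945 have 1 gene symbol, 932 have several and 9160 have none in the platform annotation, and 34741 of those with 1 gene were matched to RefSeq by gene ID, which changed 0 symbols.

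Values were taken as log2(signal + 16). Each gene was read by the probe set of 1 gene with the highest mean over all arrays, which left 18193 genes. The 15762 whose highest group mean reached the 40th percentile of all probe sets (signal 17.5) were tested with limma 3.58.1 in R 4.3.3 (lmFit and eBayes, 1 mean per group, all 20 arrays, 10 residual and 3.55 prior degrees of freedom), with Benjamini-Hochberg adjustment and a call at an adjusted p under 0.05. The number of arrays limits the precision. For 1543 tested genes the probe set has a suffix for probes shared with other transcripts. Figures and tables were made with Python 3.11.15, pandas 2.3.3, numpy 2.4.6 and matplotlib 3.10.9.

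Replicate numbers come from the array titles. Deviations of same-numbered arrays from their group means correlated between -0.277 and 0.298 over 45 pairs of groups (0.0226 for 10 h and control in C57BL/6). The highest value, 0.298, was that of 10 h and 12 h in C57BL/6. Such correlations cannot exclude pairing or a shared batch of same-numbered arrays, and the main fit left the arrays unpaired.

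The members and the gene lists were chosen with earlier results of these data known. Named are the 12 genes per direction with the largest change at 10 h against control among called genes whose groups do not overlap, 5 per direction in each other comparison, up to 4 members of each list with the smallest adjusted p, and a fixed set of stress genes. Prm1, Prm2, Ldhc, Hspb6, Atf4, Pmaip1, Zmat3, Ddit4l, Jun, Fos and Nr4a2 were named after their values were seen. Alternatives were the pseudocount, the filter, the scaling, the choice of probe set, the variance prior, the arrays fitted, a replicate block and leaving out each array.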

Additional observations from a re-analysis of the deposited data

Results flagged for a closer look

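The change at 10 h against control differed between the strains, by the limma test of the difference itself, in 5 genes. The difference, C57BL/6 minus AKR/N on the log2 scale, was 2.05 for Star, 1.55 for Aldh18a1 and 1.42 for Morf4l2, and it was -1.96 for Smc4 and -1.27 for 1700104B16Rik. In none of them did the call last through every fit that left out 1 of the 8 arrays, with adjusted p up to 0.187 (Morf4l2).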

How the results depend on the processing

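With 2 arrays per group, the number of genes called depended on which arrays gave the spread. At 10 h against control 1764 genes were called, and 1039 with median centring, 1001 with the 10 C57BL/6 arrays alone, 8 with the 4 arrays alone and 362 to 675 without 1 array. At 10 h against 8 h 1390 were called, and 702 with median centring, 0 with the 4 arrays alone (3466 at an unadjusted p under 0.05) and 71 to 451 without 1 array. Between 10 and 12 h the main 0 (1429 unadjusted) became 3 with an intensity trend, and was 0 to 14 without 1 array. The strain difference, 5 genes, gave 1 with a pseudocount of 1, 23 with one of 64, 17 with the filter at the 60th percentile, 1 with median centring, 3 with quantile normalization, 31 with an intensity trend, 2 with the replicate block, 0 with the 8 arrays alone (1609 unadjusted), and 0 to 5 without 1 array. The replicate block gave 1583, 1223 and 0 calls in the other 3 comparisons. Dnajb1, at -0.04, read 0.083 with the mean over probe sets and -0.134 to 0.0599 without 1 array. Hsp90aa1, at -0.01, read 0.0264 with quantile normalization and -0.0268 to 0.0019 without 1 array. Cryab at 10 h against 8 h, at 0.18, read -0.0369 with the mean over probe sets. Clcn5 against control, at -0.24, read 0.225 with the mean over probe sets and -0.657 to 0.173 without 1 array. None of these 4 differences was called. The cause of these shifts was not tested. Signals near or under 17.5 have little height over background, which limits changes of dim genes.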

Other observations

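Several genes outside the lists were called whichever of the 4 C57BL/6 arrays was left out, and they were chosen after their values were seen. Osmr, the receptor of oncostatin M, had 81.4 and 85.2 at 10 h, against 21.3 and 14.0 in controls (log2 change 1.57, adjusted p = 0.0043 by limma), but with the mean over its probe sets it was not called (0.36, adjusted p = 0.222 by limma). Jak1, a kinase bound to such receptors, had 572 and 491 at 10 h, against 134 and 145 in controls (log2 change 1.81, adjusted p = 0.00201 by limma, and 1.10 with the mean over its probe sets). Stat3, the transcription factor that these kinases activate, had 559 and 543 at 10 h, against 179 and 174 in controls (log2 change 1.56, adjusted p = 0.00286 by limma). Neither 10 h array came near a control in any of the 3.

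Edn1, the precursor of the vessel-constricting peptide endothelin 1, had 48.6 and 111 at 10 h, against 1.76 and 3.46 in controls (log2 change 2.29, adjusted p = 0.00326 by limma). None of the 12 endothelial markers, a dim list, was called. Mcm2, which encodes a subunit of the replication helicase, had 274 and 293 at 10 h, against 122 and 86.0 in controls (0.82 with the mean over its probe sets), and Mcm4, another subunit, had 196 and 153 at 10 h, against 80.0 and 79.0 in controls. Uhrf1, which maintains DNA methylation at replication, fell to 171 and 158 at 10 h, against 335 and 369 in controls. The splicing factor genes U2af1 and Snrnp70 fell by 0.94 and 0.80 on the log2 scale (adjusted p = 0.00288 and 0.00352 by limma), and Snrnp70 was not called with the mean over its probe sets (-0.32, adjusted p = 0.117 by limma).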
